A study of Mus musculus with 6 samples.

Results

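The proteasome subunit genes described here are the 36 of 27240 listed genes whose symbols run from Psma, Psmb, Psmc or Psmd to a number, without the immunoproteasome genes Psmb8, Psmb9 and Psmb10. The rule goes by name and uses no measured value, though earlier results of these data were known when it was chosen. The rule takes in 31 genes for constitutive subunits of the 26S proteasome. It also takes in Psmd5, Psmd9 and Psmd10, whose products are assembly chaperones, and Psma8 and Psmb11, which encode subunit forms known from testis and thymus. Their transcripts were measured in poly(A) RNA of cells labelled as primary peritoneal macrophages of the mouse, although the protocol text also mentions an adipose type. All cells had been given oxLDL, an oxidised form of low-density lipoprotein that scavenger receptors take into macrophages. The labels put 3 libraries in a knockout (KO) group and 3 in a wild-type (WT) group, and the series title names the kinase DCLK1. The labels give no strain, age, dose, exposure time, deleted exon or cell type of deletion, and oxLDL is common to both groups, so the comparison is between genotypes in oxLDL-treated cells and does not measure the response to oxLDL. Nor do they tell whether each replicate is its own animal or culture, and p-values therefore reflect the spread among these libraries alone, which may be technical.

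The 26S proteasome degrades proteins tagged with ubiquitin. Its 20S core is a barrel in which outer rings of α subunits gate the entrance and inner rings of β subunits hold the proteolytic sites. The 19S regulatory particle recognises ubiquitin chains, removes them, unfolds the substrate with a ring of ATPases (Psmc genes) and passes it into the core. In macrophages and other immune cells the catalytic β subunits Psmb6, Psmb7 and Psmb5 can be replaced by Psmb9, Psmb10 and Psmb8, which interferon-γ induces and which favour peptides for MHC class I. When proteasome capacity falls short, the transcription factor Nfe2l1 (NRF1) raises transcription of 20S and 19S genes together through antioxidant response elements.

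Because subunit genes are known for shared control, stretches of 4 promoters are shown, 2 from the 20S core and 2 from the 19S particle. They are the 250 bases before the RefSeq transcription start in GRCm38.p6, each on the plus strand and clear of annotated exons. Psmb6 lies at chr11:70525107-70525356, Psma6 at chr12:55383972-55384221, Psmd2 at chr16:20651402-20651651 and Psmd11 at chr11:80428365-80428614. Capitals mark matches, on either strand, to the antioxidant element core (TGANNNNGC), the CCAAT box (CCAAT), the GC box (GGGCGG) or the ETS factor core (CCGGAAG), and none of the marked matches overlap.
Psmb6: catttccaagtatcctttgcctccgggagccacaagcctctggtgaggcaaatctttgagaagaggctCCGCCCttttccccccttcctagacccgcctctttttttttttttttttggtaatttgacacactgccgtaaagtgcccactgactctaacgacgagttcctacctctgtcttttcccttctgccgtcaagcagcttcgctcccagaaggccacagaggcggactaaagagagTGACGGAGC
Psma6: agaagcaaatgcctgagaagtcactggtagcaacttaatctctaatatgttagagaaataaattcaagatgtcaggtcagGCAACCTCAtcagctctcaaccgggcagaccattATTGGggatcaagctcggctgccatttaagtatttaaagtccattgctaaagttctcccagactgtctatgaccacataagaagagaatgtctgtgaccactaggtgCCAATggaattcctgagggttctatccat
Psmd2: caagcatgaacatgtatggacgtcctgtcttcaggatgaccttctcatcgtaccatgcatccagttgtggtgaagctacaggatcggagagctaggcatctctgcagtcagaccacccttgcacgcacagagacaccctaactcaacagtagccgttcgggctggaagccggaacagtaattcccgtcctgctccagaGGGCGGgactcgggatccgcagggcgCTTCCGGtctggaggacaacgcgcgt
Psmd11: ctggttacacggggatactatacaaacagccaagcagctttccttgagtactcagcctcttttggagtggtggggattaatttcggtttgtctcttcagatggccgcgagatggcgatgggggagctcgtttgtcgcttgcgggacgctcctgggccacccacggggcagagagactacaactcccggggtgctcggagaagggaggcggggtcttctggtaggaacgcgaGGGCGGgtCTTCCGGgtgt
The Psmb6 stretch has an antioxidant element core in its last 9 bases before the start and a GC box at 182 to 177 bases before it. That of Psma6 has an antioxidant element core at 170 to 162 bases and CCAAT boxes at 136 to 132 and 29 to 25 bases before the start. Psmd2 and Psmd11 each have a GC box followed by an ETS core, which ends 20 bases before the start in Psmd2 and 5 bases before it in Psmd11.

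RefSeq windows of 300 bases (250 before and 50 after the start) were matched by symbol for 29 of the 36 genes, giving 31 windows. The genes without a window were Psma8, Psmb1, Psmb2 and Psmb7 of the 20S core and Psmc3, Psmd3 and Psmd7 of the 19S particle. The ETS core was in 11 of the 31 windows (35.5%), against 8.86% of 32851 windows of all genes. These windows belong to 10 genes, of which Psma6 is from the 20S core and the others are Psmc1, Psmc2, Psmc6, Psmd2, Psmd4, Psmd6, Psmd11, Psmd12 and Psmd13 of the 19S particle. The GC box was in 58.1% of member windows against 35.7% of all, and the antioxidant element core in 58.1% against 41.3%. The CCAAT box was about as frequent in member windows (38.7%) as in all windows (37.4%). An interferon-γ activated site (TTCNNNGAA) was in 1 member window, that of Psmd2 (3.23%), against 8.30% of all windows. In the immunoproteasome windows the interferon-γ activated site was in that of Psmb8 and the ETS core in 0 of 3. These matches describe letters in a window and show no binding.

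Levels are in CPM, that is counts brought to one library size, unless FPKM is named. Total counts were 72559141 to 74172804 in KO and 68053008 to 79090732 in WT libraries. Dclk1 was at 5.55, 5.89 and 5.15 CPM in KO and 7.27, 6.70 and 7.43 CPM in WT libraries (log2 fold change -0.37, edgeR adjusted p = 0.332), which is a weak check of the labels, and counts per gene cannot show whether an exon was lost. The first principal component held 25.9% of the variance. On it, KO libraries lay at 10.9, 34.6 and 37.3 and WT libraries at -60.7, -16.2 and -5.94, so the groups did not overlap. WT replicate 1 lay farthest out. The macrophage genes Adgre1, Csf1r and Cd68 were high in both groups, at 965 to 1993 CPM in KO and 1021 to 1994 CPM in WT means. Of the 8 macrophage markers 1 passed by edgeR, Lyz2, lower in KO (adjusted p = 6.5e-06), and their summed level was 12610 to 12760 CPM in KO and 20380 to 21620 CPM in WT libraries. Lyz2 alone averaged 7970 CPM in KO and 16350 CPM in WT libraries. The other 7 markers summed to 4656 to 4752 CPM in KO and 4516 to 4703 CPM in WT libraries, which overlap. Single markers differed in direction. KO lay below WT without overlap for 2 of the 8, Csf1r and Lyz2 (8.89% of all genes), and above it for 1, Itgam (8.67%). Itgam was at 599, 417 and 525 CPM in KO and 415, 232 and 332 CPM in WT libraries (log2 fold change 0.65, edgeR adjusted p = 0.344). Summed markers of T and NK cells (7 genes) were at 6.75 to 7.39 CPM in KO and 9.41 to 9.97 CPM in WT libraries. Those of fibroblasts and mesothelium (8 genes) were at 71.2 to 84.2 CPM in KO and 93.1 to 98.3 CPM in WT libraries, and those of dendritic cells (5 genes) at 10.7 to 13.0 CPM in KO and 13.6 to 15.8 CPM in WT libraries. Neutrophil markers (5 genes, Ly6g at 0 throughout) were at 20.5 to 22.9 CPM in KO and 23.5 to 26.3 CPM in WT libraries. Nearly all of this was S100a8, at 20.3 to 22.6 CPM in KO and 23.5 to 26.3 CPM in WT libraries. S100a9 went the other way near the floor, at 0.109 to 0.205 CPM in KO and 0 to 0.0588 CPM in WT libraries. Mast cell markers (5 genes) were at 2.56 to 3.58 CPM in KO and 3.93 to 4.59 CPM in WT libraries. B cell markers (5 genes) were at 1.24 to 2.56 CPM in KO and 0.794 to 1.23 CPM in WT libraries. None of these markers of other cell types passed by edgeR. Apart from the B cell sums, these sums for other cell types were lower in each KO than in each WT library, but single members differed. Of the 8 fibroblast and mesothelial genes 6 had a log2 fold change below 0 and 2 above. Wt1 was at 1.272 to 1.435 CPM in KO and 0.8825 to 0.9156 CPM in WT libraries. Among dendritic cell genes, Ccr7 averaged 9.34 CPM in KO and 11.7 CPM in WT libraries, and Flt3 1.44 and 1.41 CPM. The part of these cell types in the 20S, 19S and immunoproteasome values was not tested.

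Of the 36 genes, 35 were tested, and no member passed the test at an adjusted p of 0.05 (edgeR quasi-likelihood, lowest adjusted p = 0.359). Over all genes, 11 of 16239 passed (0.0677%), 7 of them lower in KO (0.0431%) and 4 higher (0.0246%). At an unadjusted p under 0.05, 2 members stood out, Psmb1 and Psma5, where 10.4% of all genes did. DESeq2 and limma on log2(FPKM + 1) also called 0 members, and each had the same 2 members at an unadjusted p under 0.05. DESeq2 called 455 of 12762 genes (3.57%). KO over WT, the 35 members had a median log2 value of -0.03, a fold of 0.979, beside -0.0019 over all genes. In bulk RNA, fewer cells of a type and less RNA per cell cannot be told apart.

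**Figure D1:**
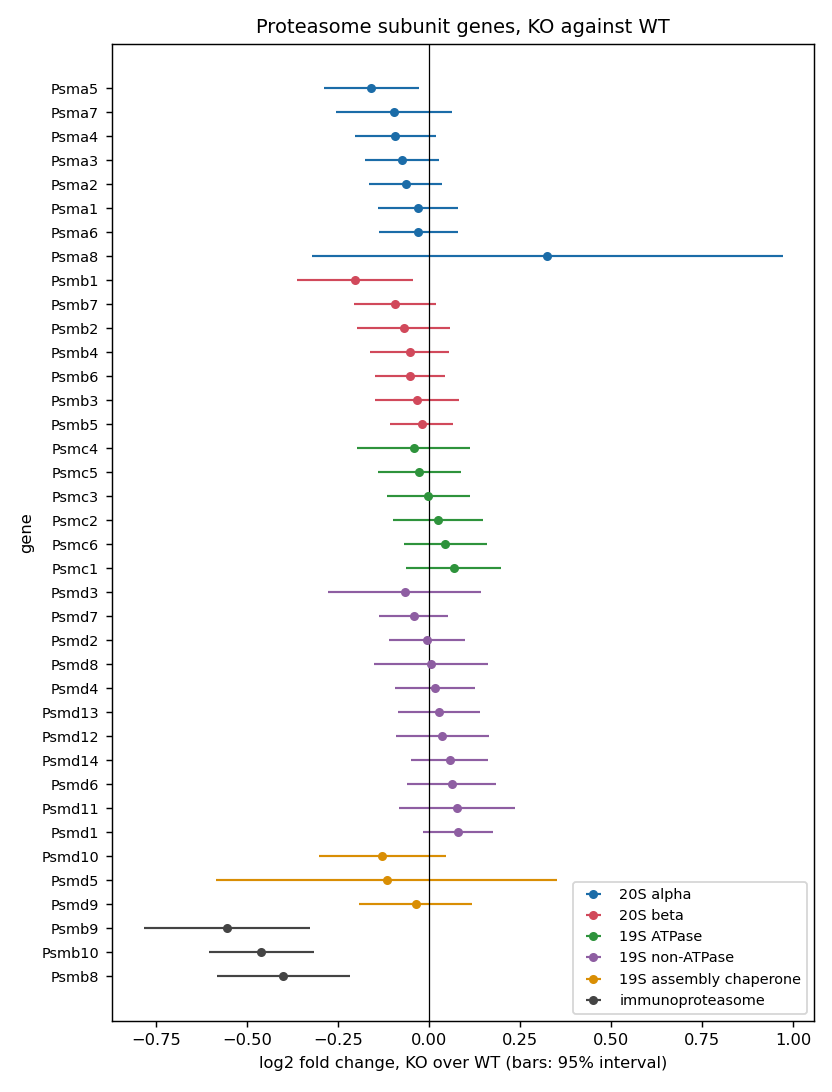
Fitted log2 fold change of KO over WT (horizontal axis) for the 35 tested proteasome genes and the 3 immunoproteasome genes, coloured by role; points are estimates and bars 95% intervals. The 14 constitutive 20S genes all lie left of 0, the 17 constitutive 19S genes lie on both sides between -0.07 and 0.08, and the immunoproteasome genes lie at -0.40 to -0.55.

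The width of these intervals shows what the data could have missed, given only the spread among these libraries, which may be technical. For 30 of the 31 constitutive subunits the 95% interval of the fold change lay wholly within 1.25-fold either way, Psmb1 being the exception, and for 31 of 31 within 1.5-fold. Counts behind these genes ran from 3967 to 37037 per library, and the median SE was 0.0487 on the log2 scale, beside 0.145 over all genes tested. Replicates of a group varied with a median coefficient of variation of 3.26% for the constitutive subunits, from 1.49% for Psmb5 to 9.24% for Psmd3, beside 11.6% for all genes.

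Within the 20S core, all 14 constitutive genes had a log2 fold change below 0, between -0.20 and -0.02, with a median of -0.07 (fold 0.954). Of all genes tested 50.5% were below 0. KO and WT libraries did not overlap for 5 of the 14, Psma3, Psma4, Psma5, Psmb1 and Psmb7, each with KO lower, a pattern found in 8.89% of all genes. In the opposite direction there were 0 of 14, against 8.67% of all genes.

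Among the α subunits, Psma5 (the α5 position, chr3:108256926-108279974, plus strand) was at 170, 154 and 149 CPM in KO libraries and 180, 175 and 173 CPM in WT libraries. The 3 KO values lay below the 3 WT values, with KO replicate 1 close to them. Its log2 fold change was -0.16 (SE 0.0559, 95% interval -0.29 to -0.03, edgeR adjusted p = 0.376). Psma5 shares 50.0% of its 50-base sequences with other annotated transcripts, chiefly the processed pseudogenes Gm8394 and Gm12989, so its counts are uncertain. Summed with both pseudogenes it was at 195, 174 and 168 CPM in KO and 204, 200 and 197 CPM in WT libraries, again -0.16 as a log2 ratio of means.

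Psma4 (the α3 position, whose yeast counterpart helps to close the gate) was at 113, 118.3 and 113 CPM in KO libraries and 127, 118.4 and 121 CPM in WT libraries, where the highest KO and the lowest WT value nearly met (log2 fold change -0.09, edgeR adjusted p = 0.555). Psma3 (the α7 position) was at 91.6, 96.1 and 93.2 CPM in KO and 96.8, 101 and 98.4 CPM in WT libraries. The pseudogene Gm13835 shares 15.4% of the 50-base sequences of Psma3 and carried 35.1% of their summed counts, and the sum gave a log2 ratio of -0.08. Psma6 (the α1 position, with Psma5 the α gene of highest FPKM) was at 155, 158 and 154 CPM in KO and 164, 162 and 151 CPM in WT libraries, where the groups overlapped. Its log2 fold change was -0.03 (95% interval -0.14 to 0.08). The α genes Psma1, Psma2 and Psma7 had log2 fold changes of -0.03, -0.06 and -0.10, with adjusted p from 0.664 to 0.880 by edgeR.

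Among the β subunits, Psmb1 (the β6 position, without a catalytic site, chr17:15475021-15499751, minus strand) had the lowest fold change of all members. It was at 92.6, 91.4 and 91.7 CPM in KO libraries and 95.02, 113 and 109 CPM in WT libraries. The KO libraries lay close together, and WT replicate 1 lay nearer to them than to the other WT libraries. Its log2 fold change was -0.20 (SE 0.0686, 95% interval -0.36 to -0.04), with an adjusted p of 0.359 by edgeR. Leaving out WT replicate 1 gave the lowest adjusted p of any member under the alternatives that leave out a library, at 0.169.

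The genes of the catalytic sites had log2 fold changes between -0.09 and -0.02. Psmb6 (the β1 position, caspase-like, chr11:70525367-70527858, plus strand) was at 277, 288 and 279 CPM in KO libraries and 291, 302 and 281 CPM in WT libraries (log2 fold change -0.05, 95% interval -0.15 to 0.04). Psmb7 (the β2 position, trypsin-like, chr2:38588036-38644087, minus strand) was at 106, 110 and 102 CPM in KO libraries and 111, 117 and 112 CPM in WT libraries (log2 fold change -0.09, 95% interval -0.21 to 0.02). Its groups lay just apart, and its exons overlap those of Nek6 on the opposite strand by 405 bases, while no source says if strand entered the counting. Psmb5 (the β5 position, chymotrypsin-like and the target of bortezomib, chr14:54614119-54618022, minus strand) was at 223, 223 and 221 CPM in KO libraries and 224, 231 and 221 CPM in WT libraries. The groups overlapped, and the 95% interval of its log2 fold change ran from -0.11 to 0.07. Psmb5 shares 54.1% of its 50-base sequences with other transcripts, mostly the pseudogene Gm3375, which carried 2.09% of their summed counts. The other β genes, Psmb2, Psmb3 and Psmb4, had log2 fold changes of -0.07, -0.03 and -0.05.

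Within the 19S particle, 6 of the 17 constitutive genes were below 0 and 11 above. Their median was 0.02 on the log2 scale (fold 1.02) and their range -0.07 to 0.08. Groups did not overlap for 1 of the 17, with KO lower, where 8.89% of all genes show this. That gene is Psmd7, a scaffold partner of the deubiquitinase Psmd14. Psmd7 was at 126.9, 127.0 and 124.8 CPM in KO libraries and 127.0, 129.6 and 133.3 CPM in WT libraries, so the highest KO and lowest WT values were nearly equal (log2 fold change -0.04).

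Of the 6 ATPase genes, 3 were below 0, and the median was 0.01 on the log2 scale. Psmc1, the ATPase gene of highest FPKM whose yeast counterpart opens the gate of the core, was at 183, 184 and 177 CPM in KO libraries and 169, 186 and 164 CPM in WT libraries. Its log2 fold change was 0.07 (95% interval -0.06 to 0.20), and WT replicate 2 lay above the KO libraries. Psmc5, second in FPKM, was at 101, 99.4 and 97.1 CPM in KO and 99.98, 106 and 97.3 CPM in WT libraries (log2 fold change -0.03). Psmc2, Psmc3, Psmc4 and Psmc6 lay between -0.04 and 0.04.

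Of the 11 constitutive non-ATPase genes, 3 were below 0, with a median of 0.03. Psmd1, a large scaffold subunit of the base, was at 296, 282 and 303 CPM in KO libraries and 284, 274 and 275 CPM in WT libraries. KO replicate 2 lay below WT replicate 1, so the groups overlapped, and the fitted log2 change came to 0.08 (SE 0.0409, 95% interval -0.02 to 0.17, edgeR adjusted p = 0.561). Psmd11, a subunit that clamps core, base and lid, was at 151, 156 and 154 CPM in KO libraries and 136, 140 and 162 CPM in WT libraries, where WT replicate 3 was the highest of the 6 (log2 fold change 0.08, 95% interval -0.08 to 0.24). Psmd2, the base subunit that docks ubiquitin-like domains of shuttle factors, was at 356, 348 and 355 CPM in KO libraries and 343, 376 and 344 CPM in WT libraries (log2 fold change -0.0052). Psmd8, a lid subunit, was at 471, 428 and 412 CPM in KO libraries and 415, 420 and 471 CPM in WT libraries, with 1 high library in each group (log2 fold change 0.0050). Psmd14, the deubiquitinase of the lid, had a log2 fold change of 0.06, and the ubiquitin receptor Psmd4 one of 0.02. Some of these counts are uncertain, since Psmc1 and Psmd2 share 14.1% and 17.8% of their 50-base sequences with pseudogenes and other transcripts, and exons of Psmd1 overlap those of Htr2b on the opposite strand by 252 bases. The pseudogenes carried 0.529% of summed counts for Psmc1 and 1.23% for Psmd2.

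Summed over genes, the 20S subunits came to 1857, 1872 and 1812 CPM in KO libraries and 1949, 1980 and 1894 CPM in WT libraries. The KO mean of 1847 ± 31.2 CPM was 95.2% of the WT mean of 1941 ± 43.7 CPM (SD, n = 3 each), and the groups did not overlap. The 19S subunits came to 2737, 2691 and 2675 CPM in KO libraries and 2615, 2701 and 2674 CPM in WT libraries, which overlapped, with a KO mean at 101% of WT. The ratio of the 20S sum to the 19S sum was 0.679, 0.696 and 0.678 in KO libraries and 0.746, 0.733 and 0.708 in WT libraries. That ratio averaged 0.684 ± 0.0101 in KO and 0.729 ± 0.0190 in WT libraries (SD, n = 3 each), and each KO value was below each WT value. These CPM sums are not corrected for gene length, so the size of the ratio does not compare transcript numbers. In deposited FPKM the 20S sums were 931.2, 934.7 and 907.8 in KO and 968.3, 969.0 and 935.6 in WT libraries. There the highest KO and lowest WT values nearly met. The 19S sums in FPKM were lower, at 779.3, 766.3 and 758.4 in KO and 743.4, 764.9 and 753.2 in WT libraries. Across all 31 constitutive subunits the sum was 4548 ± 54.7 CPM in KO and 4604 ± 66.5 CPM in WT libraries. The 20S median stayed below 0 and the 19S median above 0 in every alternative fit, with the libraries left out in turn giving -0.08 to -0.05 for 20S and 0.01 to 0.04 for 19S. Without WT replicate 1, which stands apart, they were -0.06 and 0.03. The members of both sets were known when the sets were compared, so no test is given.

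**Figure D2:**
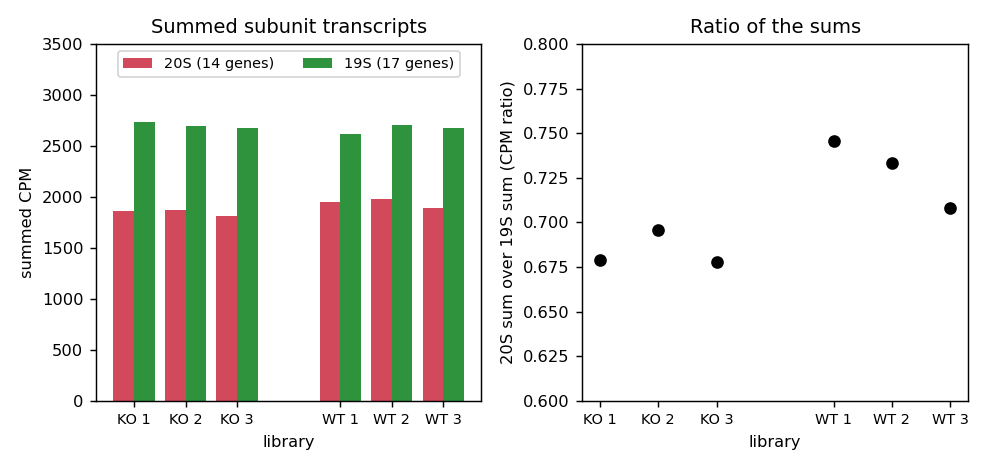
Left, summed CPM of the 14 constitutive 20S and 17 constitutive 19S genes in each library (bars, axis from 0); right, the ratio of the 2 sums per library (points, axis from 0.6 to 0.8). The 20S sums are 1812 to 1872 in KO and 1894 to 1980 in WT libraries, and the ratio is 0.678 to 0.696 in KO and 0.708 to 0.746 in WT libraries.

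The libraries did not move the subunits as a block. KO replicate 3 was the lowest library for 13 of the 31 constitutive subunits and WT replicate 3 for 9, while WT replicate 2 was the highest for 13 and WT replicate 1 for 6. The median deviation from each gene's mean, on the log2 scale, was -0.06 for α and -0.07 for β genes in KO replicate 3, but 0.03 for the non-ATPase genes in the same library. WT replicate 1, which lies farthest out on the first principal component of all genes, deviated by 0.06 for α genes and by -0.05 for non-ATPase genes.

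**Figure D3:**
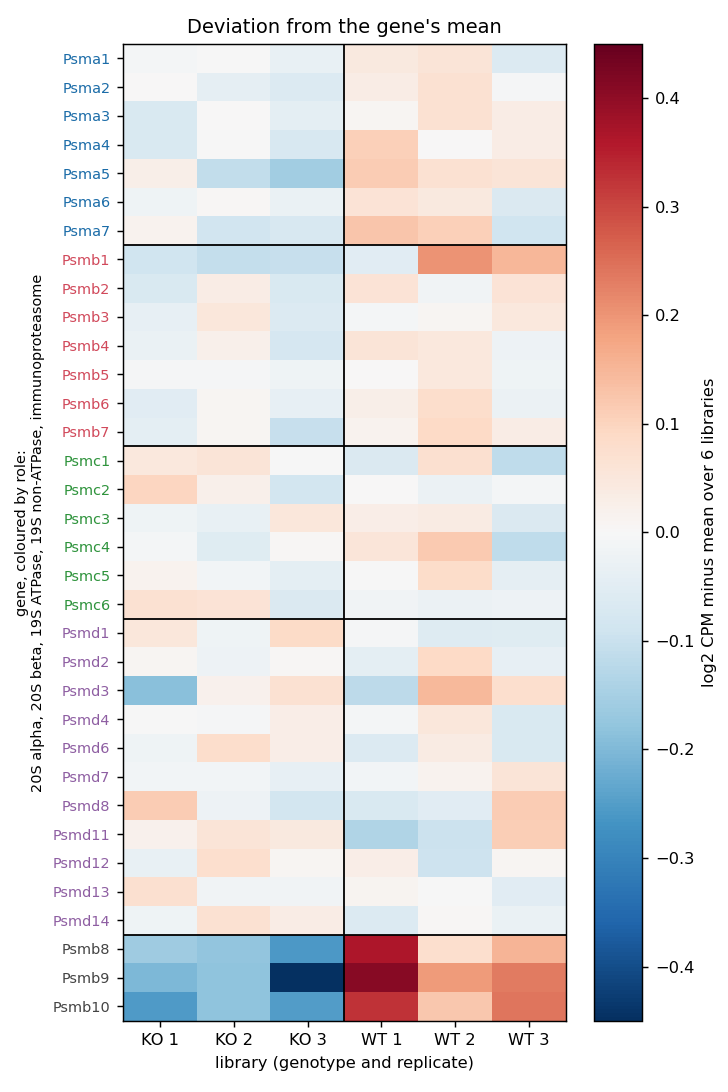
Deviation of each library (columns) from the gene's mean log2 CPM over 6 libraries (colour) for the 31 constitutive subunits and the 3 immunoproteasome genes (rows, grouped by role). The constitutive rows are pale and mixed, with KO replicate 3 the lowest library for 13 of 31, while the immunoproteasome rows are below their mean in the 3 KO and above it in the 3 WT libraries.

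The immunoproteasome genes, outside the name rule, had log2 fold changes farther from 0 than any constitutive subunit gene. Psmb10 was at 67.9, 71.4 and 68.0 CPM in KO libraries and 102, 88.2 and 95.7 CPM in WT libraries (log2 fold change -0.46, edgeR adjusted p = 0.0756). Psmb9 was at 22.6, 23.0 and 19.04 CPM in KO libraries and 34.6, 29.7 and 30.7 CPM in WT libraries (log2 fold change -0.55, edgeR adjusted p = 0.104). Its exons overlap those of Tap1, a gene with up to 10529 counts, on the opposite strand by 212 bases, so its counts and the β1 ratio are uncertain. Psmb8 was at 84.9, 83.8 and 79.3 CPM in KO libraries and 122, 99.9 and 105 CPM in WT libraries (log2 fold change -0.40, edgeR adjusted p = 0.127). Psmb8 exons overlap by 498 bases those of Gm20496, an antisense gene with at most 20 counts in any library. KO libraries lay below WT libraries without overlap for the 3, as for 8.89% of all genes. None passed by edgeR, while DESeq2, which called 3.57% of all genes, called each of them (adjusted p = 1.0e-07 for Psmb10, 7.8e-05 for Psmb9 and 0.00026 for Psmb8). Without WT replicate 2, Psmb10 passed by edgeR (adjusted p = 0.0457).

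Set against the constitutive gene of the same site, Psmb9 transcripts were 7.66 ± 0.731% of Psmb6 CPM in KO and 10.9 ± 1.02% in WT libraries (SD, n = 3 each). Psmb10 was 65.2 ± 1.44% of Psmb7 CPM in KO and 84.3 ± 8.04% in WT libraries. The β2 ratio is uncertain too, since exons of Psmb7 overlap by 405 bases those of Nek6, a gene with up to 9834 counts. Psmb8 was 37.2 ± 1.12% of Psmb5 CPM in KO and 48.4 ± 5.70% in WT libraries. KO minus WT, the mean log2 ratio differed by -0.50, -0.37 and -0.38 at the β1, β2 and β5 sites, and each KO library was below each WT library at all 3 sites. For each of the 3 pairs an exact two-sided permutation test gave p = 0.1, also after Benjamini-Hochberg adjustment over the 3 pairs, which is the smallest p that 3 against 3 libraries allow. The shares in CPM are not corrected for length. Per kilobase of 1 annotated transcript of each gene, Psmb9 stood at 4.83, 4.71 and 4.03% of Psmb6 in KO and 7.00, 5.80 and 6.43% in WT libraries. Psmb10 stood at 56.6, 57.35 and 59.1% of Psmb7 in KO and 81.1, 67.0 and 75.6% in WT libraries on that scale. Psmb8 stood at 21.0, 20.8 and 19.8% of Psmb5 in KO and 30.1, 23.8 and 26.3% in WT libraries.

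**Figure D4:**
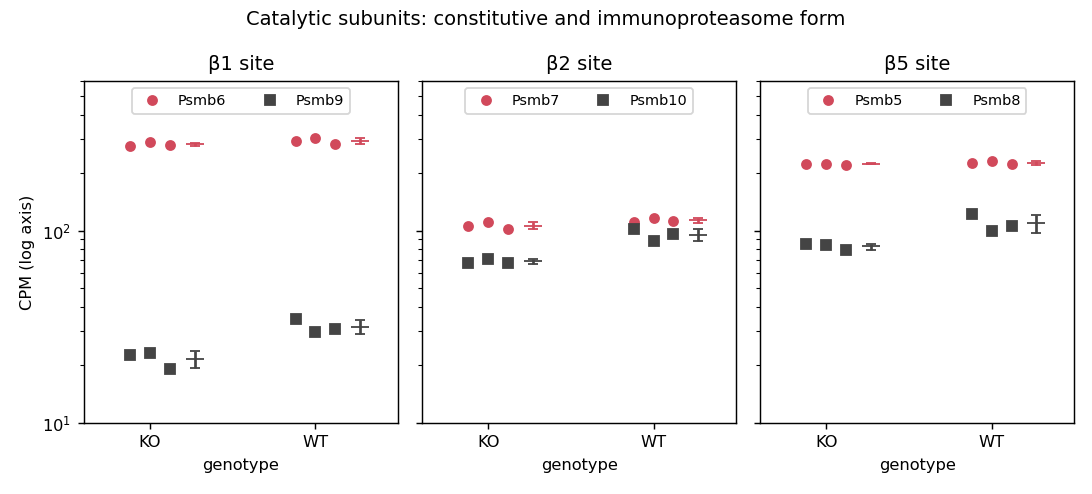
CPM (log axis) of the constitutive (red circles) and immunoproteasome (dark squares) gene of each catalytic site in the 3 KO and 3 WT libraries, with the group mean and SD beside the points. Psmb5 is at 221 to 223 CPM in KO and 221 to 231 CPM in WT libraries, while Psmb9, Psmb10 and Psmb8 are lower in each KO library than in each WT library.

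The remaining members are no constitutive subunits. The chaperone Psmd10 (gankyrin) was at 69.3, 71.6 and 63.3 CPM in KO libraries and 79.8, 75.04 and 68.4 CPM in WT libraries, where the groups overlapped (log2 fold change -0.13, SE 0.0743, edgeR adjusted p = 0.618). Psmd5, a chaperone of the 19S base, was at 47.6, 44.7 and 71.0 CPM in KO libraries and 64.7, 65.7 and 46.7 CPM in WT libraries. KO replicate 3 was high and WT replicate 3 low, a spread of 22.3% within groups against 3.26% for the subunits, and Psmd5 was singled out after its values were seen. Psmd9, which guides assembly of the ATPase ring, was at 23.4, 21.4 and 23.4 CPM in KO and 22.9, 23.6 and 23.4 CPM in WT libraries, and 1849 bases of its exons overlap the lincRNA Gm26745 on the opposite strand. Psma8, the testis form of the α4 subunit, was at 1.08, 1.504 and 1.84 CPM in KO libraries and 1.07, 1.34 and 1.12 CPM in WT libraries, with a 95% interval of the log2 fold change from -0.32 to 0.97. Psmb11, the thymus form of β5, had 4, 0 and 4 counts in KO libraries and 0 in each WT library, and was too low to test. A count of 0 allows up to 3 counts, or 0.0382 to 0.0441 CPM, and covers counting error only.

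Levels can be set against each other per length. In the deposited FPKM, the constitutive subunits ranged from 223.7 (Psmb5) to 19.1 (Psmd3), an 11.7-fold range over means of 6 libraries. With the total count of a library taken as its depth, count and FPKM imply a length for each gene. It was 1.11 times the summed annotated exonic bases for all 31 genes, and 1.11 (Psmb5) to 3.74 (Psma7) times the length of 1 principal transcript. Whether the common factor of 1.11 lies in length or in the depth used for FPKM cannot be told from these values. In CPM per kilobase of that transcript, the order ran from 359 (Psmb6) to 33.8 (Psma3), a 10.6-fold range, and the ratio of the upper to the lower quartile was 1.97 against 2.17 in FPKM. Psma7 was 22nd in FPKM and 8th per kilobase of transcript, at 114 CPM per kilobase. Psmb7 was 23rd and 13th, Psmc5 8th and 17th. Psmb6, Psmd8, Psmb5, Psma6 and Psma5 were the first 5 on both scales, in different orders. Psmd8 was at 283.7 ± 19.9 CPM per kilobase in KO and 282.7 ± 20.1 in WT libraries, and Psmb5 at 247 ± 1.501 in KO and 251 ± 5.91 in WT libraries (SD, n = 3 each).

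**Figure D5:**
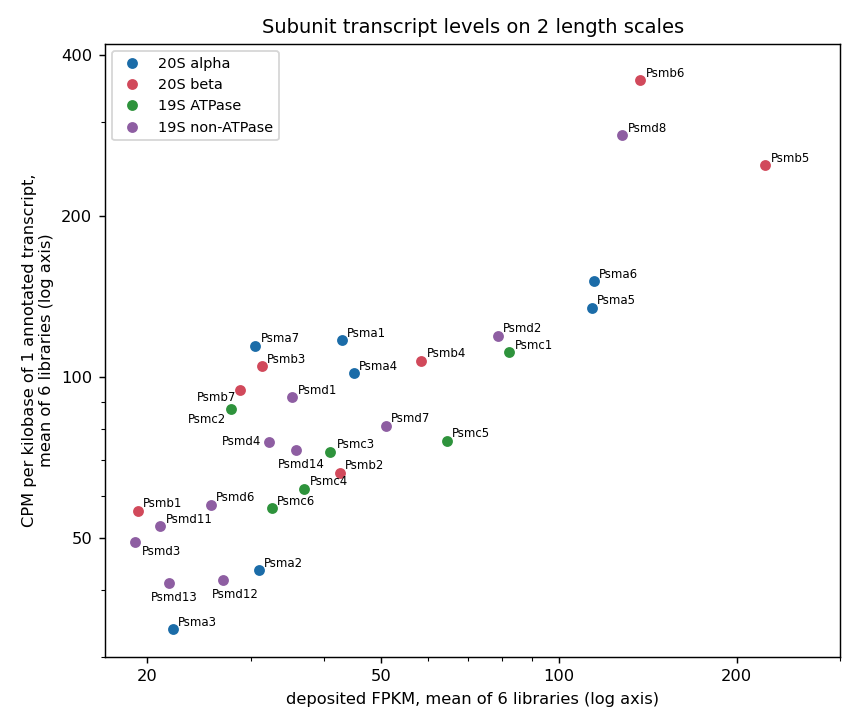
Mean level of the 31 constitutive subunits over 6 libraries as deposited FPKM (horizontal, log axis) and as CPM per kilobase of 1 annotated transcript (vertical, log axis), coloured by role. Psmb6, Psmd8 and Psmb5 stand at the upper right on both scales, and Psma7 lies well above genes of like FPKM.

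Other genes of the pathway were taken from lists by function, and none of their members passed by edgeR. The 19S subunit genes outside the name rule, Sem1 and Adrm1, had log2 fold changes of 0.04 and 0.07. All 6 further assembly chaperones were below 0, with a median of -0.10, beside 50.5% below 0 among all genes. At an unadjusted p under 0.05 by edgeR, 1 of the 6 stood out, Pomp, where 10.4% of all genes did. The 20S maturation factor Pomp was at 122, 125 and 116 CPM in KO and 142, 127 and 131 CPM in WT libraries (log2 fold change -0.14, edgeR adjusted p = 0.450), and Ecpas, which holds core and cap together, had a log2 fold change of -0.03. Of the 5 genes for activators and an inhibitor of the core, 2 were below 0. Psme2, a subunit of the interferon-inducible PA28αβ activator, was at 204, 192 and 182 CPM in KO and 266, 254 and 236 CPM in WT libraries (log2 fold change -0.39), which missed the threshold by edgeR (adjusted p = 0.0802) and passed it by DESeq2 (adjusted p = 3.9e-06). Its partner Psme1 had a log2 fold change of -0.30 (edgeR adjusted p = 0.310), and the nuclear activator Psme3 one of 0.09 (edgeR adjusted p = 0.531).

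Around the proteasome, the deubiquitinases Usp14 and Uchl5 had log2 fold changes of -0.03 and 0.06, and the shuttle factors Rad23b and Ubqln1 -0.08 and -0.0050. The polyubiquitin gene Ubb had -0.05 (edgeR adjusted p = 0.632). The unfoldase gene Vcp had -0.06 and its cofactor Nploc4 -0.10. Of 10 genes for factors that control subunit transcription, 9 were below 0, with a median of -0.06, beside 50.5% below 0 among all genes. Nfe2l1 was at 93.5, 81.2 and 97.7 CPM in KO and 110, 106 and 107 CPM in WT libraries (log2 fold change -0.24, SE 0.0712, edgeR adjusted p = 0.278), and was singled out after its values were seen. Nfe2l2 had a log2 fold change of -0.05, and the small Maf gene Mafg one of -0.10 (edgeR adjusted p = 0.363).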

How the data were processed

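Poly(A) RNA gave paired-end Illumina NovaSeq libraries, per the labels' protocols. The submitters' processing notes name HISAT2 2.0. For build, annotation and counting tool nothing is given in those notes, the labels or the headers used here. The deposited table pairs a count with an FPKM value for each gene and library, per the file headers. The count values deposited by the authors are whole numbers with a different total in each library, and the FPKM values were scaled by the authors for length and depth. A further 12 columns of values match none of the 6 libraries and were not used. Gene coordinates are as deposited; 31 of the 36 are the same in GENCODE M21, so they are taken as GRCm38.

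Libraries were grouped by labelled genotype. In edgeR 4.0.16 under R 4.3.3, after filterByExpr and TMM scaling, KO was tested against WT with a two-sided quasi-likelihood test on genotype alone, with Benjamini-Hochberg adjustment over 16239 genes and a threshold of 0.05. CPM uses TMM-scaled library sizes, and fold changes are KO over WT. The alternatives tried were RLE size factors, no low-count filter, DESeq2 1.42.0 (Wald test), limma 3.58.1 on log2(FPKM + 1) and log2(FPKM + 0.1) for genes reaching an FPKM of 1 in 3 or more libraries, the first also unfiltered, the replicate number as a block, and each library left out. The fit was tested on simulated counts. No library was counted as a duplicate. Reads that could belong to several genes were looked for in GENCODE M21, through 50-base sequences found in transcripts of other genes (12 members share at least 5% of theirs) and through overlapping exons (9 members). The transcript for levels per kilobase has the best APPRIS rank, then the greatest length. Promoter sequences are from RefSeq.

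The members, lists and tests were chosen with earlier results of these data known. Named in full are Psmb5, Psmb6 and Psmb7, the 6 members of smallest p, per role the 2 of highest FPKM, per direction the 3 largest changes, and per related list the 2 of highest FPKM. A gene that the rule names is not reported here. Psma3, Psmd7, Psmd5, Psmd9, Psma7, Psmb9, Psme1 and Nfe2l1 were added after their values were seen. The markers Itgam, S100a8, S100a9, Wt1, Ccr7 and Flt3 were singled out in the same way.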

Additional observations from a re-analysis of the deposited data

How the results depend on the processing

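No member was called under any alternative, and the median log2 fold change of the members stayed between -0.03 and -0.01 in every one. It was -0.03 without the members that share sequence or exons with other genes (21 tested members left) and -0.03 for the constitutive subunits alone, both chosen after seeing the data, as was the level per kilobase of transcript. The count of all genes called was 11, but 7 with no low-count filter, 455 by DESeq2, 7 by limma on log2(FPKM + 0.1), 4 by limma with no filter, 3 with the replicate number as a block, and 7 to 35 with a library left out (35 without KO replicate 1, 24 without WT replicate 2 and 7 without WT replicate 1); the cause was not tested. Whether the replicate numbers pair the samples cannot be told from these values. Same-numbered libraries deviated together with small correlations of 0.0173 to 0.0488, yet each library deviated most like its own number. Correlations of the other pairs ran from -0.0365 to 0.0121. The block called 0 members by edgeR, with 2 at an unadjusted p under 0.05. Of 737 values for 57 genes under the alternatives, 700 kept their direction and side of the threshold, 5 newly passed, 0 ceased to pass and 32 changed sign. Under the 3 limma settings Psmd2 was at 0.0080, 0.0081 and 0.0080, Psmc3 at 0.0099, 0.010 and 0.0099 and Ubqln1 at 0.0068, 0.0070 and 0.0068. With a library left out, log2 fold changes ran from -0.0193 to 0.0699 for Psmc2, from -0.0343 to 0.0165 for Psmc3, from -0.107 to 0.00802 for Psmc4, from -0.0539 to 0.00821 for Psmc5, from -0.0295 to 0.0399 for Psmd2, from -0.14 to 0.00627 for Psmd3, from -0.0137 to 0.0456 for Psmd4, from -0.355 to 0.0032 for Psmd5. They ran from -0.0525 to 0.0651 for Psmd8, from -0.0575 to 0.000618 for Psmd9, from -0.000454 to 0.061 for Psmd12, from -0.00278 to 0.0421 for Psmd13, from -0.00532 to 0.102 for Sem1, from -0.0235 to 0.00451 for Ubqln1, from -0.00132 to 0.123 for Uchl5. The direction of these genes therefore depends on which libraries enter.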
